A study of Gallus gallus with 41 samples.

Results

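Cadherins, protocadherins and catenins were followed in single cells of the embryonic chick retina. The genes were chosen by name alone: every probe set whose single platform symbol began with CDH and a digit, with PCDH, or with CTNNA, CTNNB or CTNND. This gave 103 of the 38535 probe sets on the Affymetrix chicken array and 42 of the 13009 genes that it names. Where a gene had several probe sets, the one of highest average signal across the 41 cells was used. The 42 genes comprised 4 type I cadherins, 12 type II cadherins, 3 other cadherins, 15 protocadherins, 6 catenins and 2 genes that only carry the name of a catenin, CTNNBL1 and CTNNBIP1.

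Cadherins are calcium-dependent adhesion proteins that bind like molecules on the neighbouring cell. Inside the cell, classical cadherins bind beta-catenin (CTNNB1) and p120-catenin (CTNND1), and alpha-catenins tie the complex to actin; beta-catenin also acts in the nucleus in Wnt signalling. Protocadherins lack the beta-catenin binding tail of the classical cadherins, and the clustered ones are known in mammals for giving single neurons different surface identities. In the retina, N-cadherin (CDH2) holds the neuroepithelium together and takes part in layering and in axon growth.

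Cells came from retinas dissociated with papain and were lysed without culture, 1 cell to an array, with no strain, treatment or sex given. The ages are embryonic days (E): 6 cells are from E3, 3 from E4, 5 from E5, 10 from E6, 1 from E7, 6 from E9, 8 from E14 and 2 from E15. No embryo is named, so all cells of an age count as 1 sample and a standard deviation (SD) over cells is a spread, not an error of the age. Signals are log2 values, shown at 5.0 where they lay below it, the median of the whole table.

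Several features of the cells move with age and bear on all that follows. High background marked 6 arrays, those of all 3 E4 cells, of both E15 cells and of E6 replicate 7: their median signal was log2 6.82 or more, against at most 5.50 on the other 35. The mean signal of 17 measured cell cycle genes (of 19 listed) was 6.57 to 11.91 at E3, 11.32 to 12.00 at E4 and 12.20 in the E7 cell, but 5.98 to 8.09 at E6, 5.88 to 7.31 at E9 and 5.32 to 6.45 at E14. The mean of 13 early neuron and ganglion cell genes (of 16) ran the other way, from 5.07 to 8.81 at E3, 7.07 to 8.41 at E4 and 6.20 at E7, to 12.25 to 13.24 at E6, 11.47 to 12.92 at E9 and 11.80 to 14.02 at E14. Of these 13, STMN2, GAP43, RBPMS2 and SNAP25 were detected in none of the E3 cells, and 11 were not detected in the E7 cell. GAP43 was also detected in none of the E5, E6, E9 and E14 cells, so it does not set E3 apart from those ages. At E15 the mean of 8 bipolar and photoreceptor genes (of 11) was 10.81 and 10.94, and at most 9.25 elsewhere. Replicates 2, 4 and 6 of E3 had high signal of red cell globins, with HBE at 11.90, 16.87 and 16.42. HBAD, an alpha-type globin, was at 13.64 to 15.48 in 5 of the 8 E14 cells and at 10.31 and 17.21 in the E15 cells, against 6.02 at most at E9. The 3′ end of cytoskeletal actin exceeded its 5′ end, on the log2 scale, by 6.65 ± 1.98 in E3 cells (SD, n = 6), by 1.94 ± 1.55 in E6 cells (n = 10), by 1.27 ± 0.53 in E9 cells (n = 6) and by 3.08 ± 0.80 in E14 cells (n = 8). The part of each of these in the differences between ages was not tested.

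Bright signal was a minority of the values. Strong signal was defined, after the values were seen, as at least log2 10 and at least the 99th percentile of 687 probe sets on the same array that were designed on other sequence records and carry no gene name. The highest share of those probe sets to pass on any array was 1.02%. The definition itself sets that limit, so the share is no check of the cut. Of the 1722 values (42 genes in 41 cells), 193 (11.2%) were strong, 749 (43.5%) lay at the floor and 780 (45.3%) lay between. By this measure 23 of the 42 genes were strong in at least 1 cell, and 27 if any probe set of a gene was allowed. Of the 23, 6 were strong in a single cell: CDH6, CDH8, CDH12, PCDH12, PCDH15 and PCDHAC2. A looser measure, detection, meant at or above the 80th percentile of the array, which was log2 5.47 to 7.29 on 35 arrays and 8.46 to 9.82 on those of high background. By the probe set used, CDH4, CDH17, CDH19, PCDH10 and PCDH18 were detected in 0 cells, but by any probe set CDH4 was detected in 2 cells and CDH17 in 1. Counts below are for the probe set used unless another is named. By the same probe sets a further 8 genes were detected in 1 or 2 cells, and these 13 in all were left out of the test over age. A low signal does not show that a transcript was absent, since the cDNA of a single cell was amplified over many cycles from its poly(A) end.

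**Figure D1:**
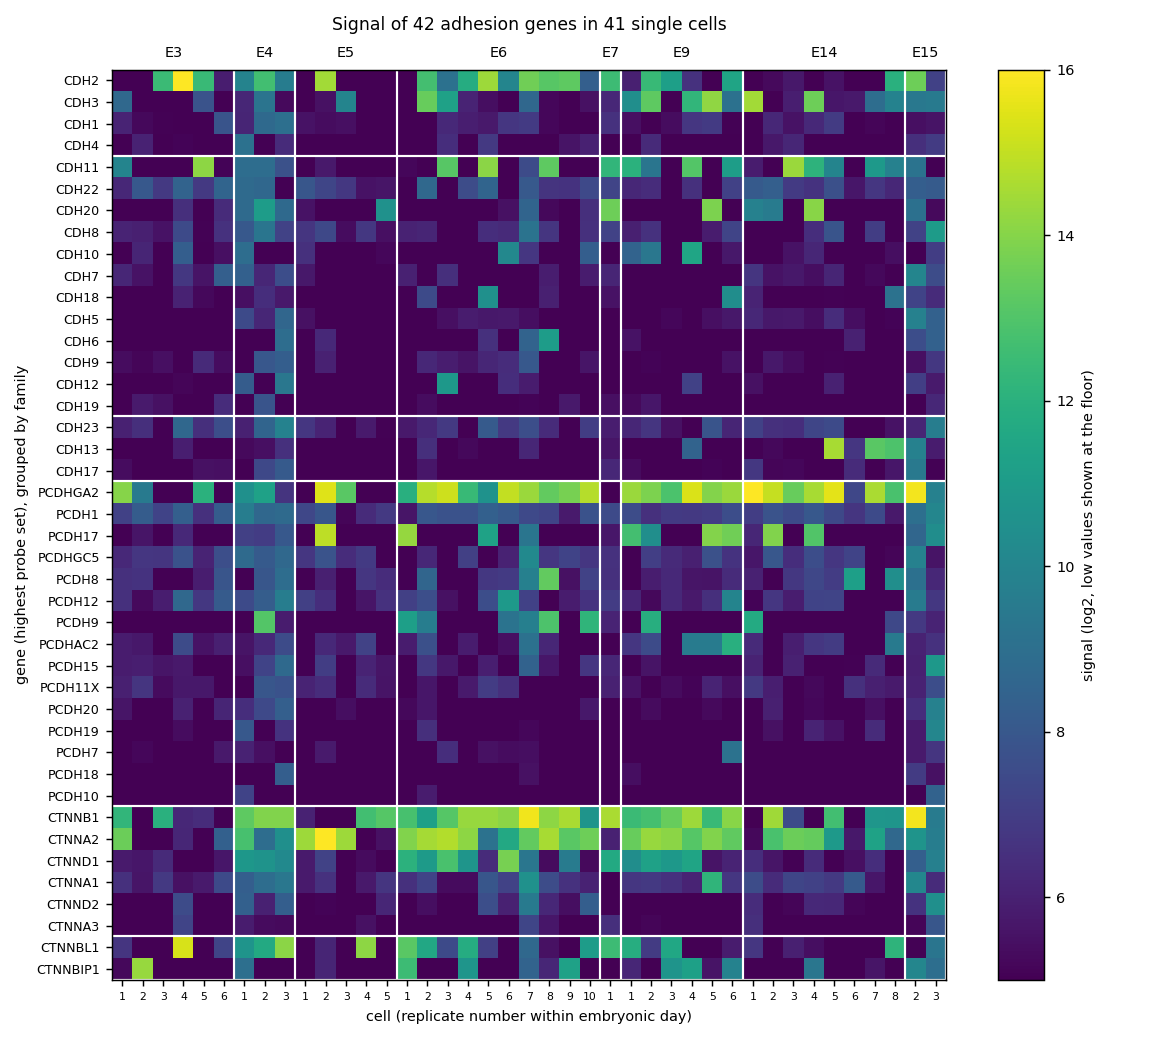
Signal of the 42 genes (rows, grouped by family: type I, type II and other cadherins, protocadherins, catenins, and the 2 genes named after catenins) in 41 cells (columns, by age and replicate), as log2 signal in colour with values below 5.0 shown at 5.0. CTNNB1, CTNNA2, PCDHGA2 and CDH2 are bright in many cells, the other genes are bright in fewer cells or in none, and the rows of PCDH1, CDH22 and PCDHGC5 are evenly dim.

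The number of strong genes per cell differed with age. E3 cells had 0 to 3 strong members (median 2), and E5 cells had 1 to 4 (median 2). E6 cells had 5 to 8 (median 7), E9 cells 7 to 8 (median 8) and E14 cells 1 to 6 (median 4). The lowest E6 cell thus lay above every E3 and E5 cell, and every E9 cell lay above every E14 cell. E6 replicate 1, whose source name says E5, had 8, so the separation of E5 from E6 rests on following its title. As a share of gene and cell pairs, E3 had 4.37% strong among the 42 genes, against 13.1% among all 13009 named genes. The E6 shares were 15.5% and 15.0%, the E9 shares 18.3% and 19.1% and the E14 shares 9.52% and 14.4%, in the same order. As a set, the adhesion genes therefore lay well under the share of all genes at E3, close to it at E6 and E9, and under it again at E14. The members were not alike. At E6, 18 of the 42 were strong in any cell: PCDHGA2 and CTNNB1 in 10 of 10, CTNNA2 in 9, CDH2 in 7, CTNND1 in 5 and the others in fewer. The 3 E4 cells had 5, 7 and 4 strong members (12.7% against 18.5% of all genes), the E7 cell 6 (14.3% against 21.6%) and the E15 cells 4 and 2 (7.14% against 8.76%). With the 5 E5 cells the share was 5.24% against 11.6%. These shares come from 1 sample an age and have no test.

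**Figure D2:**
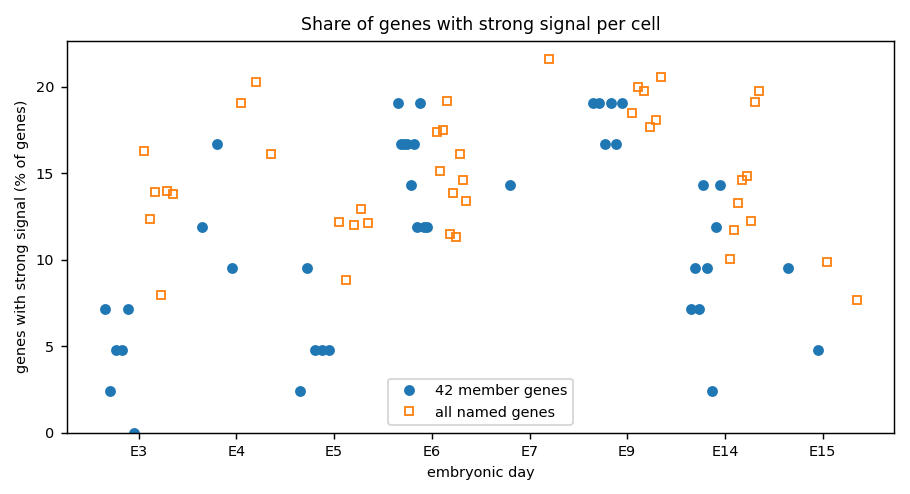
Share of genes with strong signal in each cell (y axis, percent of genes) by age (x axis), for the 42 adhesion genes (filled circles) and for all 13009 named genes (open squares), 1 point of each kind per cell. The 6 E3 cells lie between 0 and 7.14% for the adhesion genes and between 7.97% and 16.3% for all genes, while at E6 and E9 the sets of points overlap.

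Among the type I cadherins, CDH2 was strong in 18 of 41 cells, with 10.02 to 16.05 in those and 5.0 to 9.92 in the rest. At E3 its signal was 12.52, 16.05 and 12.48 in replicates 3, 4 and 5 and at most 5.88 in the others, so the E3 cells split evenly. At E5 only replicate 2 was high, at 14.47, and the other 4 cells lay at 5.0 or 5.01. At E6 it ran from 5.0 through a median of 12.27 to 14.41 and was strong in 7 of 10 cells (exact 95% Clopper-Pearson interval 34.8 to 93.3%). Such intervals, here and below, cover counting error only. They take the cells as separate draws, although the cells of an age count as 1 sample. CDH2 was strong in 3 of 6 E9 cells, where the highest was 12.41 and the median 8.89. At E14 it was strong in 1 of 8 cells (0.316 to 52.7%), replicate 8 at 11.96, with the other 7 at 5.69 or lower. The E7 cell stood at 12.53, the E4 cells at 9.92, 12.69 and 9.62, and the E15 cells at 13.56 and 7.12. The mean was 11.14 ± 2.96 at E6 (SD, n = 10) and 6.06 ± 2.40 at E14 (n = 8). All 8 E14 cells lay within the E6 range, but its lowest cell, at the floor, was replicate 1, whose source name says E5. The other E6 cells read 8.32 or more, and of the E14 cells only replicate 8 lay within their range. A second CDH2 probe set never passed log2 8.68, so CDH2 rests on 1 probe set.

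CDH3, P-cadherin in mammals, followed another course. It was strong in 0 of 6 E3, 0 of 3 E4 and 0 of 5 E5 cells, in 2 of 10 E6 cells, in 4 of 6 E9 cells and in 2 of 8 E14 cells. Its E9 signals were 10.46, 13.25, 5.0, 12.24, 14.17 and 9.12, whereas 8 of the 10 E6 cells lay at 8.68 or lower. The E14 cells ran from 5.0 through a median of 7.44 to 14.47. The mean was 7.06 ± 3.05 at E6 (n = 10) and 10.71 ± 3.34 at E9 (n = 6), and the ages overlapped. All 8 cells with strong CDH3 were among the 30 with strong PCDHGA2. The other CDH3 probe set was strong in 2 cells and ran with the first at a Spearman correlation of -0.13 over 41 cells, so the probe sets of this gene disagree. CDH1, E-cadherin of epithelia, was detected in 7 cells at 5.47 to 8.74 and strong in 0. CDH4, R-cadherin, whose name stands for retina, was not detected by the probe set used.

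Type II cadherins are classical cadherins that mark subsets of neurons in the developing nervous system. CDH11 was strong in 11 cells and low in the other 30, which lay between 5.0 and 9.98. It was strong in 1 of 6 E3 cells (14.11), 0 of 5 E5 cells (5.73 at most), 3 of 10 E6 cells (13.16, 14.08 and 13.27), 3 of 6 E9 cells and 3 of 8 E14 cells. The E7 cell was at 12.26. The median went from 5.09 at E6 to 10.21 at E9 and 9.91 at E14, and at each of these ages cells at the floor stood beside cells above 13.

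CDH20, singled out here after its values were seen, was strong in 5 cells, no more than 1 at any age. These were E4 replicate 2 (11.09), E5 replicate 5 (10.55), the E7 cell (13.59), E9 replicate 5 (13.84) and E14 replicate 4 (14.06). Its 10 E6 cells were all at 8.56 or lower. CDH10 was strong in E6 replicate 6 (10.15) and E9 replicate 4 (11.45), and it was detected in 50% of E9 cells and 0% of E14 cells. CDH18 was strong in 2 cells and CDH6, CDH8 and CDH12 in 1 each, all between 10.41 and 11.08, and by any probe set CDH8 was strong in 3. CDH5, CDH7, CDH9 and CDH19 were strong in 0 cells; CDH5 is the cadherin of blood vessel endothelium.

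CDH22 read differently from one of its probe sets to another. The probe set with the highest mean was dim and even, at 5.0 to 8.82 with a median of 6.84, and was strong in 0 cells although detected in 23. The other 2 probe sets, looked at after the values were seen, lay at or near the floor in most cells and were both strong in the same 4 cells: E9 replicates 5 and 6 and E14 replicates 4 and 5. The second read 10.84, 11.91, 13.18 and 11.15 in those cells and the third 11.18, 12.58, 13.86 and 12.27. They ran together over 41 cells (Pearson r = 0.93, Spearman rho = 0.62), while the second had a Spearman correlation of 0.00 with the dim one. In E6 replicate 1 both were also off the floor, at 8.87 and 10.37, and the third was strong there. Both of these had positive slopes over age with unadjusted p in limma of 0.00746 and 0.0146, and adjusted p of 0.498 and 0.652.

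**Figure D3:**
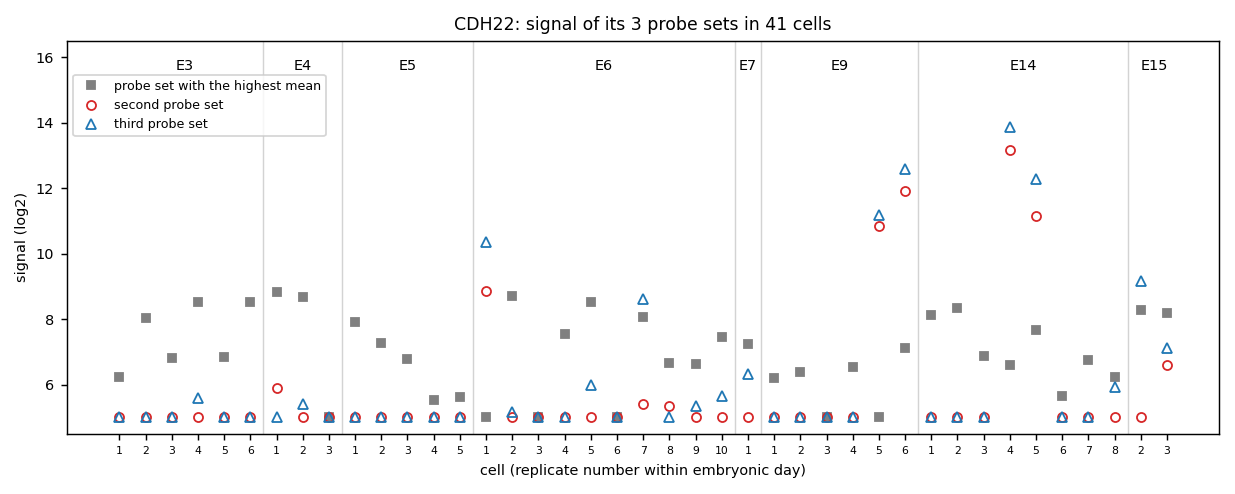
Signal of the 3 CDH22 probe sets (y axis, log2) in the 41 cells (x axis, by age and replicate), with grey squares for the probe set of highest mean, red circles for the second and blue triangles for the third. The grey points stay between 5.0 and 8.82, whereas the red and blue points stand high together in E9 replicates 5 and 6 and E14 replicates 4 and 5 and, lower, in E6 replicate 1.

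Of the other cadherins, CDH13 (T-cadherin, held in the membrane by a lipid anchor and without a catenin-binding tail) was strong in 3 of the 41 cells, all from E14, by the probe set used. Replicates 5, 7 and 8 of E14 were at 14.55, 13.19 and 12.91, and the other 5 E14 cells were at 5.07, 5.24, 5.0, 5.0 and 6.75. No cell before E9 passed 6.52, 1 E9 cell read 8.50, and the E15 cells read 9.84 and 5.83 on arrays of high background. A second CDH13 probe set was strong in E14 replicates 4 (13.00) and 8 (11.46), so both agreed on replicate 8 and differed on the rest. The globin gene HBAD was high in 5 E14 cells: replicates 7 (14.26) and 8 (13.64), strong for CDH13, and replicates 2 (15.07), 3 (15.48) and 6 (15.25), which were not. Replicate 5, the cell highest for CDH13, read 5.97 for HBAD and 11.59 for HBA1. CDH23, a tip link protein of hair cells, was detected in 17 cells at 5.78 to 9.88 and strong in 0; by any probe set it was detected in 25 and strong in 1. CDH17 was not detected by the probe set used.

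PCDHGA2, a member of the gamma protocadherin cluster, was strong in 30 of the 41 cells, with 10.50 to 16.51 in those and 5.0 to 9.84 in the other 11. Its 10 E6 cells ran from 10.60 through a median of 14.05 to 15.17 and its 6 E9 cells from 12.86 through 14.15 to 15.39. All of these cells were strong, with intervals of 69.2 to 100% at E6 and 54.1 to 100% at E9. At E14 it was strong in 7 of 8 cells, 12.83 to 16.51, and replicate 6 stood alone at 7.34. Before E6 the cells split: E3 read 14.01, 9.52, 5.0, 5.0, 12.02 and 5.0, and E5 read 5.0, 15.46, 13.17, 5.0 and 5.0. The E4 cells were at 10.50, 11.30 and 6.66, the E7 cell at 5.01 and the E15 cells at 15.80 and 9.84. In mammals the gamma genes share their last exons, and a probe set near the 3′ end of such a transcript cannot tell its isoforms apart. The signal is therefore given under the platform's name for it and may come from other members of the cluster. The platform has a single probe set under this symbol, as it has for CTNNB1, so neither gene has a second reading.

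PCDHGC5, from the same cluster by name, behaved differently: it was detected in 22 cells, at 5.97 to 10.21, and strong in 0. PCDHAC2, an alpha-cluster gene, was detected in 1 of the 10 cells at E6, but in 5 of the 6 at E9. Its mean was 6.01 ± 1.37 at E6 (n = 10) and 8.39 ± 2.46 at E9 (n = 6), and it was strong in E9 replicate 6 alone, at 11.93.

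The non-clustered protocadherins PCDH17 and PCDH9, homophilic adhesion proteins of the nervous system, were each bright in a minority of cells. PCDH17 was strong in 0 of 6 E3 cells, 1 of 5 E5 cells, 2 of 10 E6 cells, 4 of 6 E9 cells and 2 of 8 E14 cells. Its E9 signals were 12.73, 10.42, 5.0, 5.0, 13.97 and 13.62, and 8 of the 10 E6 cells lay at 9.28 or lower. No other of the 8 PCDH17 probe sets added a strong cell, but by any of them it was detected in 31 cells, against 11. PCDH9 was at the floor in all 6 E3 and all 5 E5 cells, and strong in 3 of 10 E6 cells, 1 of 6 E9 and 1 of 8 E14 cells. E4 replicate 2 also had it strong, at 13.07. Among the E6 cells PCDH9 ran from 5.0 through a median of 9.43 to 12.94. PCDH8, known in mammals as a protocadherin of activated synapses, was detected in 17 cells but strong in 3: E6 replicate 8 (13.36) and E14 replicates 6 (11.22) and 8 (10.42). E14 replicate 6 is the E14 cell in which PCDHGA2, CTNNA2 and CTNNB1 were all low, and PCDH8 was its only strong member.

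PCDH1 and PCDH12, the second an endothelial protocadherin in mammals, were detected in 33 and 16 cells. PCDH1 lay between 5.15 and 10.03 and was strong in none of them, and PCDH12 was strong in 1, at 10.90. Their signal went with the brightness of the array: over 41 cells the Spearman correlation with the array median was 0.77 for PCDH1 and 0.62 for PCDH12, and over the 35 cells without high background 0.70 and 0.49. PCDH7, PCDH10, PCDH11X, PCDH18, PCDH19 and PCDH20 were strong in 0 cells by the probe set used, and PCDH15 in 1.

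Of the catenins, CTNNB1 was strong in 29 cells, 10.68 to 15.79, and at 5.0 to 9.59 in the other 12. At E6 it ran from 10.68 through a median of 14.12 to 15.75, and at E9 from 12.47 through 13.09 to 14.40. All 10 and all 6 of these cells were strong, as were all 3 E4 cells (13.29, 13.93 and 13.92) and the E7 cell (14.62). The E3 cells read 12.24, 5.0, 12.00, 6.24, 6.39 and 5.04, so only replicates 1 and 3 reached the E6 range. At E14 the cells were spread over the whole range, at 5.0, 14.44, 7.52, 5.0, 12.67, 5.0, 10.78 and 10.75. The mean was 13.27 ± 0.82 at E9 (SD, n = 6) and 8.90 ± 3.77 at E14 (n = 8), and 6 of the 8 E14 cells lay below every E9 cell.

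CTNNA2, the alpha-catenin of neurons, was strong in 27 cells. It stood at 13.12 to 14.31 in the 6 E9 cells and at 9.14 to 14.72 (median 13.75) in the 10 E6 cells, of which 9 were strong. At E3 it was strong in replicate 1 alone (13.53), and the other 5 cells were at 8.38 or lower. E14 cells ran from 5.24 through a median of 11.14 to 13.52, with replicates 1 (5.24), 6 (5.72) and 8 (8.72) not strong. The E7 cell was at 6.02, the E4 cells at 12.80, 8.92 and 10.50, and the E15 cells at 10.69 and 9.66. A second CTNNA2 probe set was strong in 8 cells and had a Spearman correlation of 0.05 with the first. CTNNA1, the alpha-catenin of epithelia and most tissues, was detected in 25 cells but strong in 2, E6 replicate 7 (10.56) and E9 replicate 5 (12.19). CTNNA3, known from heart and testis, was detected in 1 cell.

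The E5 cells set CTNNA2 and CTNNB1 apart. CTNNA2 was at 14.37, 16.41 and 14.38 in replicates 1, 2 and 3 and at 5.0 and 5.47 in replicates 4 and 5. CTNNB1 was at 6.05, 5.0 and 5.0 in replicates 1 to 3 and at 12.69 and 13.08 in replicates 4 and 5. The first 3 cells had neuron list means of 12.74, 13.09 and 12.32 and cell cycle means of 5.49, 6.09 and 5.04. The other 2 had neuron list means of 5.96 and 6.43 and cell cycle means of 11.15 and 11.02. The E7 cell, with a cell cycle mean of 12.20, was like the second pair, strong for CTNNB1 and not for CTNNA2. Other cells with cell cycle means of 11.08 or more differed. E4 replicate 2 (12.00) and E3 replicate 3 (11.08) were like the pair. E4 replicates 1 and 3 (11.73 and 11.32) were strong for both genes, and E3 replicate 6 (11.91) for neither. The E6 and E9 cells had both genes high at once: all 6 E9 cells and 9 of 10 E6 cells were strong for both. At E14, replicates 2, 5 and 7 were strong for both and replicates 1 and 6 for neither. E14 replicates 3 and 4 were strong for CTNNA2 and not CTNNB1, and replicate 8 the reverse.

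CTNND1 was strong in 13 cells and each of these was also strong for CTNNB1, while 16 cells were strong for CTNNB1 without it. It was strong in 0 of 6 E3 cells (6.29 at most), 0 of 5 E5 cells (7.19 at most) and 0 of 8 E14 cells (6.45 at most). It was strong in 5 of the 10 cells at E6 and in 4 of the 6 at E9, with 10.39, 11.29, 10.87 and 11.43 in E9 replicates 1 to 4 and 5.56 and 6.09 in replicates 5 and 6. The E4 cells were at 10.82, 10.63 and 10.23 and the E7 cell at 11.66. With 0 of 8 E14 cells strong, the exact 95% interval for the share reaches 36.9%. No other of the 4 CTNND1 probe sets added a strong cell, but by any of them it was detected in 24 cells, against 17. CTNND2, the neuronal relative of p120, was detected in 6 cells and strong in 0, but by any of its 4 probe sets it was detected in 13 cells and strong in 1, E6 replicate 7 at 11.46, an array of high background.

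**Figure D4:**
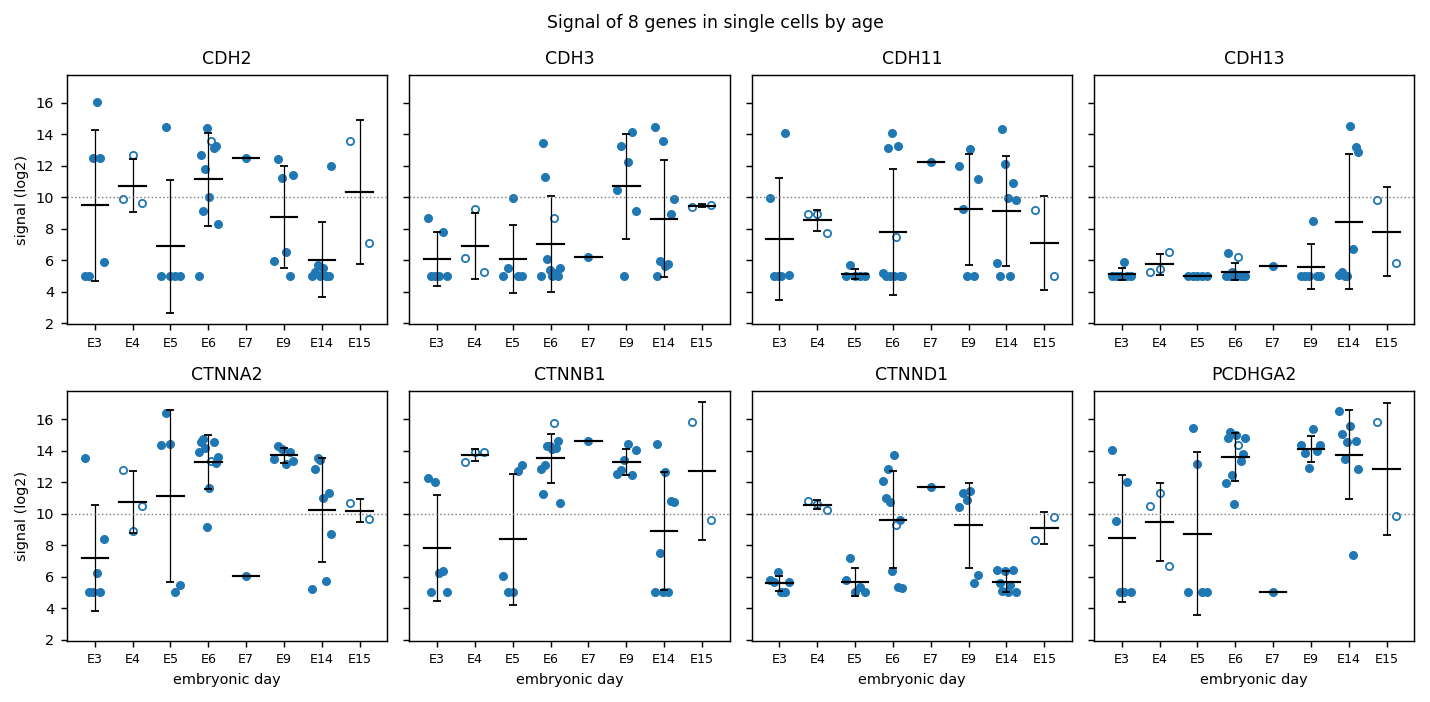
Signal of 8 genes (y axis, log2) in each cell by age (x axis), with open circles for arrays of high background, a bar at the mean of the cells and whiskers of 1 SD over cells (none at E7, 1 cell); the dotted line marks log2 10. CTNNB1, CTNNA2 and PCDHGA2 lie together at the top at E6 and E9 and split at E3 and E5, and CDH13 passes the dotted line in 3 E14 cells.

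The genes named after catenins are not junction proteins: CTNNBL1 is a nuclear protein tied to splicing, and CTNNBIP1 (ICAT) keeps beta-catenin from TCF factors. CTNNBL1 was strong in 13 cells, among them all 3 E4 cells (10.69, 11.69 and 14.10) and the E7 cell (12.53). Beyond these it was strong in 1 of 6 E3, 1 of 5 E5, 4 of 10 E6, 2 of 6 E9 and 1 of 8 E14 cells, reaching 15.35 in E3 replicate 4, a cell with high globin. CTNNBIP1 was strong in 6 cells, 3 of them at E6 and 2 at E9, and the highest was E3 replicate 2 at 14.29, also with high globin.

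Differences between well-sampled ages were read without a test, with a difference of means of at least 3 log2 units as the mark. From E3 to E6, 5 of the 29 genes that passed the filter were higher by that much and 0 lower, where 5.91% of 24893 probe sets were higher and 3.03% lower. These were CTNNA2 (by 6.09), CTNNB1 (by 5.69), PCDHGA2 (by 5.19), CTNND1 (by 4.05) and PCDH9 (by 3.49). Passing the filter needed detection in 3 cells, which a gene bright at E6 meets through E6 alone, so the count is a description. Each of the 29 was read from its probe set of highest average signal, whereas the shares and medians over all cover every kept probe set. The 29 and all probe sets are therefore not matched, here or in the later steps. The median difference of the 29 was 0.68, against 0.27 over all probe sets. Without the 3 E3 cells of high globin signal, the difference was 3.29 for CTNNB1, 3.27 for PCDHGA2, 5.43 for CTNNA2, 3.93 for CTNND1 and 3.49 for PCDH9. The E3 cells kept were not all free of globin signal: replicate 1 read 9.42 for HBA1 and 6.95 for HBE. That cell was also the one E3 cell strong for CTNNA2. The part of globin in these differences was not tested. The actin 3′ excess was larger at E3 than at E6, as given above, and its part in these differences was not tested. Over 41 cells it had a Spearman correlation of -0.46 with CTNNA2 and -0.31 with CTNNB1. Within an age, the correlation with CTNNA2 was -0.48 at E6 and 0.10 at E14. That with CTNNB1 was 0.16 at E6 and -0.07 at E14.

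From E6 to E9, CDH3 (by 3.65) and PCDH17 (by 3.13) were higher by 3 or more and 0 genes lower, where 1.75% of probe sets were higher and 0.386% lower. The median of the 29 was -0.08, against -0.27 over all. From E9 to E14, 0 genes were higher by 3 or more and 3 were lower, all catenins: CTNNB1 by -4.37, CTNND1 by -3.60 and CTNNA2 by -3.48. Over all probe sets 1.21% were higher and 5% lower by that much, and the median of the 29 was -0.17 against 0.10. Just short of the mark were CDH13 (by 2.88), PCDH17 (by -2.86) and CDH2 (by -2.70). Of the other catenins among the 29, CTNNA1 differed by -0.79 and CTNND2 by 0.52. Leaving out the 5 E14 cells of high HBAD, after the values were seen, left 3 cells, replicates 1, 4 and 5. The difference was then -5.71 for CTNNB1, -3.34 for CTNND1 and -3.83 for CTNNA2. These cells disagreed: CTNNB1 was at 12.67 in replicate 5 and at the floor in replicates 1 and 4. CTNNA2 read 5.24, 13.41 and 10.97 in replicates 1, 4 and 5. Replicate 5 also read 11.59 for HBA1, so the cells kept were not all free of globin signal. Of the E9 cells, replicate 1 read 10.48 for HBA1. The part of globin in these differences was not tested. The actin 3′ excess was larger at E14 than at E9, and its part was not tested. PCDHGA2, by contrast, had means of 14.12 ± 0.82 at E9 (n = 6) and 13.73 ± 2.82 at E14 (n = 8).

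Averaged over the 6 catenins in each cell, the signal was 6.28 ± 1.02 in E3 cells (SD, n = 6), 9.18 ± 0.76 in E6 cells (n = 10), 8.97 ± 0.32 in E9 cells (n = 6) and 7.04 ± 0.82 in E14 cells (n = 8). The lowest E6 cell (8.15) lay above the highest E3 cell (8.02). The 19 cadherins averaged 5.96 ± 0.42, 6.23 ± 0.65, 6.28 ± 0.49 and 6.20 ± 0.50 at the same ages, and the 15 protocadherins 5.94 ± 0.30, 6.69 ± 0.60, 6.74 ± 0.62 and 6.48 ± 0.42. Those family means overlapped between all 4 ages. With the mean of all probe sets of each gene in place of the brightest, the catenin difference from E3 to E6 was 1.60 in place of 2.90, and from E9 to E14 it was -0.77 in place of -1.93.

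With 1 sample an age, the test made was the slope of signal on embryonic day over the 8 age means, fitted with limma on all 24893 probe sets that passed the filter. None of the 29 adhesion genes tested was called at an adjusted p under 0.05, where 0.133% of all probe sets rose and 0% fell. At an unadjusted p under 0.05, 3 of the 29 had positive slopes and 0 negative, against 3.54% and 1.17% of all probe sets. A contrast of E9 and later ages with the earlier ones, fitted with limma on the same means, called 0 of the 29 in either direction, where 0.129% of all probe sets were higher and 0% lower. At an unadjusted p under 0.05 it had 3 of the 29 higher (CDH13, CDH3 and PCDHGA2) and 0 lower, against 3.32% and 0.759% of all. The median slope of the 29 was 0.01 log2 units per day, with 16 of 29 positive, and that of all probe sets was 0.02, with 61.3% positive. Here too the 29 are the brightest probe sets of their genes, so the shares of all probe sets are not matched to them.

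The 3 genes were CDH13, with a slope of 0.30 ± 0.08 (SE) and an adjusted p of 0.0823 in limma, PCDHGA2 at 0.40 ± 0.17 (adjusted p = 0.767) and CDH3 at 0.27 ± 0.13 (adjusted p = 0.987). CDH13 passed the threshold in 2 of the 61 alternative fits made for it, with an adjusted p of 0.0222 in limma without E15 replicate 2 and 0.0198 without that cell and E4 replicate 1, and its adjusted p over all 61 ran from 0.0198 to 0.681. Without the E14 cells CDH13 no longer passed the filter. The second CDH13 probe set had a slope of 0.10 ± 0.06, with an unadjusted p of 0.0896 in limma. The other CDH3 probe set sloped the other way, at -0.14 ± 0.09, with an unadjusted p of 0.141 in limma. PCDH17 (0.18 ± 0.13) and CDH11 (0.15 ± 0.15) were the next positive slopes. The most negative were CDH2 (-0.26 ± 0.17) and CTNNBL1 (-0.19 ± 0.15), followed by CTNND1 (-0.07 ± 0.16), PCDH12 (-0.06 ± 0.11) and CDH1 (-0.04 ± 0.07), all with an adjusted p near 1 in limma. The slope of CDH2 was 0.03 and that of CTNND1 0.29 without the E14 cells. A straight line does not describe CTNNB1 and CTNND1, whose means were high at E6 and E9 and lower at E14, and their slopes (-0.02 ± 0.17 for CTNNB1) say little about such a course.

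**Figure D5:**
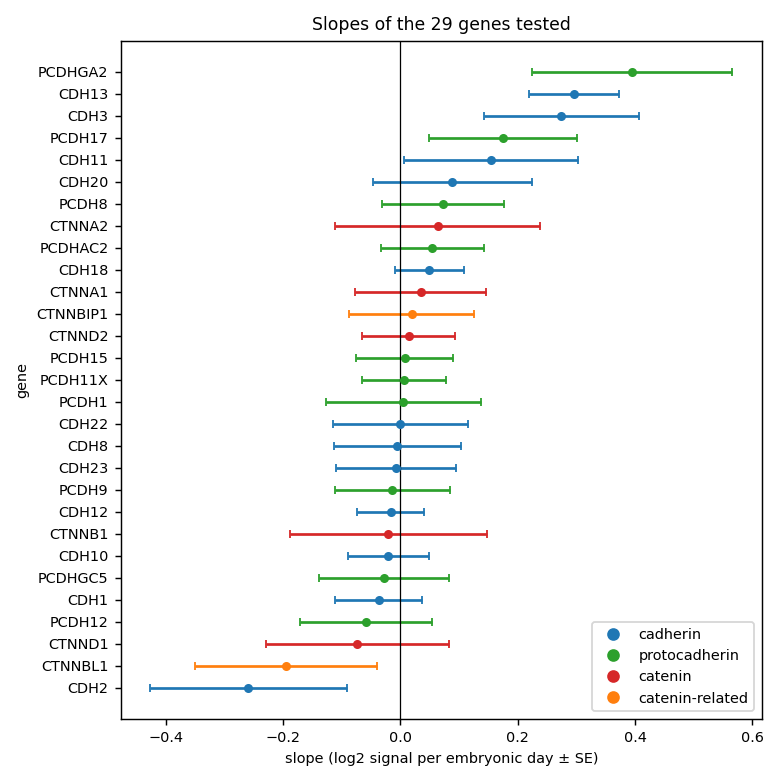
Slope of log2 signal per embryonic day (x axis) with its standard error for each of the 29 genes tested (y axis), coloured by family. The bars of CDH13, PCDHGA2 and CDH3 lie farthest to the right, that of CDH2 farthest to the left, and no gene passed the adjusted threshold.

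A list of partners was read the same way: junction and cytoskeletal proteins, other members of the cadherin superfamily, cadherin-cleaving enzymes, regulators of beta-catenin and small GTPases. Of 66 symbols asked for, 52 were found and 44 passed the filter, of which 0 were called. TCF7L2, a DNA-binding partner of beta-catenin, was the 1 with an unadjusted p under 0.05 (slope 0.26 ± 0.10, adjusted p = 0.555 in limma). Its strong cells were 0 of 6 at E3, 0 of 10 at E6, 2 of 6 at E9 and 2 of 8 at E14. CLSTN1, a calsyntenin of the cadherin superfamily, was strong in all 41 cells, and RHOA, a GTPase of the actin skeleton, in 40. JUP (plakoglobin, the close relative of beta-catenin) was strong in 36 cells, 5 of 6 at E3, all 10 at E6, all 6 at E9 and all 8 at E14. Since all 8 E14 cells were strong for JUP, it does not tell those with CTNNB1 at the floor from the rest. GSK3A, a kinase that marks beta-catenin for breakdown, was strong in 2 of 6 E3 cells and 8 of 10 E6 cells, whereas VCL (vinculin) was strong in 3 of 6 E3 cells and in 0 cells at E6, E9 and E14. DCHS2, a giant cadherin, was strong in 0 cells.

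Relations between the genes over cells are given as descriptions, since the cells share age, array background and amplification. Among the 19 genes detected in at least 10 cells, the 171 pairs had a median Spearman correlation of 0.17, and 0.11 over the 35 cells without high background. The 5 highest pairs were PCDH1 with PCDH12 (0.61), CDH8 with PCDH12 (0.58), CDH23 with PCDH1 (0.58), CDH22 with PCDH1 (0.56) and CDH23 with PCDH12 (0.55). All 5 join probe sets that were dim in most cells, though CDH8 (11.02) and PCDH12 (10.90) were each strong in 1 cell. The correlation of each of these genes with the array median was between 0.51 and 0.77. The 3 lowest were CDH11 with PCDHGC5 (-0.25), CTNNBL1 with PCDHGA2 (-0.24) and CTNNA2 with PCDH8 (-0.19). Some pairs of bright genes are added outside that choice, after the values were seen. Over 41 cells CDH3 and PCDHGA2 had 0.50, CTNNB1 and CTNND1 0.46, and CDH2 and CTNNB1 0.45. CTNNA2 had 0.44 with PCDHGA2 and 0.09 with CTNNB1. Over the 35 cells without high background these were 0.52, 0.42, 0.36, 0.39 and 0.11 in the same order. Against the marker lists, CTNNA2 had 0.57 with the neuron genes and -0.51 with the cell cycle genes, and PCDHGA2 0.52 and -0.44. CTNNB1 had 0.04 and 0.08 with the same lists. With the cell cycle genes CDH8 had 0.46, PCDH12 0.45 and CTNNBL1 0.44. Over the 35 cells without high background these were 0.27, 0.34 and 0.37.

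No member but PCDHGA2, CTNNB1 and CTNNA2 was strong in more than 18 cells, and cells of the same age differed in which cadherins were strong. Among the 6 E9 cells, which had 7 or 8 strong members each, 6 cadherins were strong in some cells and not in others: CDH2 in 3, CDH3 in 4, CDH11 in 3 and CDH10, CDH18 and CDH20 in 1 each. CDH22 is not among them by the probe set used, but its other probe sets were strong in replicates 5 and 6. By strong signal, replicate 5 of E9 combined CDH3 with CDH20 and PCDH17, replicate 4 combined CDH3 with CDH10 and CDH11, and replicate 6 combined CDH2 with CDH11, CDH18, PCDH17 and PCDHAC2. These combinations depend on the cut at log2 10, set after the values were seen. Detected signal lay just under it for CDH10 (9.35) and CDH11 (9.29) in E9 replicate 2 and for CDH3 (9.12) in replicate 6. A low signal in a single amplified cell does not show that a transcript was absent. Some of these genes neighbour each other in the RefSeq annotation of assembly GRCg7b (CDH5 and CDH11, CDH11 and CDH8, CDH10 and CDH12, CDH3 and CDH1). CDH11 was strong in 11 cells, and its neighbours CDH5 and CDH8 in 0 and 1.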

How the data were processed

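The deposited values are log2 signals, 1 array to a cell. The submitters' processing notes name MAS5 for them, with its version not given. Per the labels' protocols, cDNA was primed from the poly(A) tail and amplified by PCR, which favours 3′ ends. Genes were named from the platform annotation, and all 42 matched RefSeq (GRCg7b) by gene ID. The members, gene lists and tests were chosen with earlier results of these data known.

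Values were floored at log2 5.0 with no further scaling. Probe sets detected in at least 3 cells (24893) were kept. Means of the 8 ages, weighted by cells, were fitted on day with limma 3.58.1 (lmFit, eBayes with a trend; R 4.3.3), with 6 residual and 77.6 prior degrees of freedom, and Benjamini-Hochberg adjustment over all. These p-values measure the spread of 8 means, which may be technical, and lean on a variance that many probe sets share. Arrays give no counts, so the number of cells limits precision, and intervals cover counting error only. The fit was also run on simulated data, with cells shuffled within each probe set and known slopes added. Shuffling breaks the background that the probe sets of an array share. That run therefore cannot show that the p-values hold for these data. Control probe sets and 2 probe sets with several symbols were left out. The source name of E6 replicate 1 says E5; its title was followed. The series text speaks of 39 cells, and 41 were given. Named genes were those detected in at least 15 cells, the 5 smallest slope p-values in each direction, those whose detected share differed by 50 points between ages, and, of the partners and pairs, the extremes. Alternatives covered the floor, scaling, filter, weights, probe set choice, detection level and left-out cells or ages.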

Additional observations from a re-analysis of the deposited data

Results flagged for a closer look

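Within an age of 4 to 10 cells, a cell was singled out when it stood apart from all others of its age by Dixon's criterion. Of 125 combinations of a gene, a family mean or the count of strong members with an age, 24 were singled out this way. Chance alone gives about 1 in 20 for normally distributed values. Floored signals are not so distributed, and that rate need not hold for them. Many of these groups sit at the floor, where a single value above it is enough.

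At E3, replicate 4 stood apart for CTNNBL1 (15.35), CDH10 (8.31) and CDH13 (5.91). At E5, replicate 2 stood apart for CDH2 (14.47), PCDH17 (14.89), CDH11 (5.73) and the protocadherin mean (7.26), replicate 3 for CDH3 (9.96), replicate 4 for CTNNBL1 (14.13) and replicate 1 for CDH10 (6.52). At E6, replicate 7, an array of high background, stood apart for CTNNA1 (10.56), PCDHGC5 (10.21) and the catenin mean (10.96), and replicate 6 for PCDH12 (10.90). At E9, replicate 5 stood apart for CTNNA1 (12.19), replicate 6 for PCDH12 (9.95), replicate 4 for CDH13 (8.50) and replicate 2 for PCDH9 (11.90). At E14, replicate 8 stood apart for CDH2 (11.96), CTNNBL1 (12.17) and PCDHAC2 (9.48), replicate 1 for PCDH9 (11.73), replicate 4 for CDH10 (6.20) and replicate 6, the 1 cell low among the others, for PCDHGA2 (7.34).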

How the results depend on the processing

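The count of rising probe sets over the whole array, 33, was unstable. It was 0 without the floor, with quantile normalization, with equal weights, with arrays scaled to the same 75th percentile, without arrays of high background, without E4 and with the detected share as response. It was 2 with a floor at the 25th percentile, 4 with a floor at the highest array median, 55 with no filter, 53 with E6 replicate 1 moved to E5 and 81 without the 2 cells of later accession (E4 replicate 1 and E15 replicate 2). It was 6 without E3, 107 without E6, 16 without E7, 72 without E9 and 8 without E14, and 15 to 66 without single cells. Falling probe sets, 0 as reported, were 14 without E6, 1 without E14, 1 without the E3 cells of high globin signal and 0 to 1 without single cells. Of the adhesion genes, 1 was called as rising (CDH13) without the 2 cells of later accession, and 0 to 1 without single cells, the 1 being without E15 replicate 2; 0 fell in any fit. Slopes turned sign without E14 for CDH2 (0.0306), PCDH12 (0.0436) and CTNND1 (0.29), and for CDH1 without arrays of high background (0.00973) and without E4 (0.00184); none of these slopes was called. The catenin difference from E3 to E6 (2.90) was 1.91 with a floor at the highest array median and 1.60 with the mean of all probe sets, and that from E9 to E14 (-1.93) was -0.77 with the mean of all probe sets. Members detected per cell depended on the level used. At E3 (10.3) they were 13.2 at the 75th percentile, 3.83 at the 90th, 13 with any probe set and 1.83 by strong signal. At E6 (11.7) they were 14, 7.3, 13.7 and 6.5 in the same order. At E9 (13.5) they were 7 at the 90th percentile and 7.67 by strong signal, and at E14 (10.5) 5 and 4. The cause of these changes was not tested. No paired analysis was possible because the cells of an age count as 1 sample and their replicate numbers only name cells.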
